A study of Mus musculus with 21 samples.

Results

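Levels of the genes that place, copy and remove DNA methylation were followed in mouse embryonic stem cells with impaired RNA silencing. The genes were Dnmt1, Dnmt3a, Dnmt3b, Dnmt3l, Uhrf1, Tet1, Tet2 and Tet3, chosen by gene symbol from the deposited count table, and all 8 were found among its 22512 rows. All 8 passed the filter on low counts in both experiments.

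DNMT1 copies methylation onto the new strand after replication, and UHRF1 brings it to hemimethylated sites. DNMT3A and DNMT3B place new methyl groups, and DNMT3L, which has no catalytic activity of its own, stimulates them. TET1, TET2 and TET3 oxidise methylcytosine, a first step toward its removal. In embryonic stem cells lacking microRNAs, loss of silencing by the miR-290 family is known to raise the transcriptional repressor Rbl2 and to lower Dnmt3 genes.

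All groups carried the GFP_5xT71BS reporter, and the W label describes that line as 129S6/SvEvTac embryonic stem cells with stable FLAG-Cas9::T2A::Blasticidin. Cells grew on gelatin in serum with LIF, and each of the 7 groups had 3 libraries. Experiment 1 held W (no further edit and no plasmid), Trim71KO (Trim71-/-) and Ago2KO (Ago2-/-). Experiment 2 held unedited cells transfected with pCIP FH-T6B_WT::mCherry (T6B_WT) or pCIP FH-T6B_MUT::mCherry (T6B_MUT), and Trim71-/- or Ago2-/- cells transfected with empty plasmid (Trim71KO_empty, Ago2KO_empty). TRIM71 is an RNA-binding repressor of mRNAs, AGO2 carries microRNAs, and T6B is a fragment of a TNRC6 protein that occupies Argonaute. The knockouts of Experiment 2 were compared with T6B_MUT, so genotype and plasmid differed together there and cannot be told apart. The labels do not give the number of clones per edited line or say whether transfected cells were sorted. The design text calls the replicates biological, and p-values measure the spread between these libraries.

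Library totals were 29.6 to 50.8 M counts in Experiment 1 and 33.9 to 57.9 M in Experiment 2. All 8 markers of embryonic stem cells exceeded 1 CPM (read counts scaled to a common library total, here with TMM factors) in every group, with a sum of 3716 to 5029 CPM per library. Trim71 RNA was lower in Trim71KO (412, 416 and 459 CPM) than in W (602, 602 and 618 CPM) and lower in Trim71KO_empty (405, 409 and 393 CPM) than in T6B_MUT (482, 493 and 503 CPM), so reads of Trim71 remained in both edited lines. Trim71 was also lower in Ago2KO (522, 504 and 505 CPM). Ago2 RNA was 43.6, 42.5 and 39.8 CPM in Ago2KO against 153, 134 and 140 CPM in W. In the libraries labelled Ago2KO_empty it was 87.4, 167 and 45.6 CPM against 113, 143 and 112 CPM in T6B_MUT. In Ago2 RNA, the library labelled Ago2KO_empty replicate 2 therefore went against its label, with more than any T6B_MUT library. Whether transcript length, described below, had a part in this was not tested. The SD of log2 differences between 2 libraries labelled Ago2KO_empty was 0.216 to 0.346, against 0.102 to 0.225 in the 18 replicate pairs of the other groups. Values without replicate 2 are given with some of the results that rest on this group, and not with all.

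On the per-length scale (RPKM, reads scaled to gene length and library size), the genes lay far apart in level. In W, Dnmt3l was highest at 111 ± 2.83 RPKM (SD, n = 3), followed by Uhrf1 at 93.7 ± 2.03, Dnmt1 at 63.7 ± 0.916 and Dnmt3b at 45.9 ± 1.31 RPKM. Tet1 (17.4 ± 2.63 RPKM), Dnmt3a (16.1 ± 0.485 RPKM) and Tet2 (12.5 ± 0.893 RPKM) formed a lower tier, in which Tet1 and Dnmt3a overlapped between libraries. Tet3 was lowest at 0.272 ± 0.0287 RPKM and stayed lowest in all 7 groups. In Trim71KO the order changed to Uhrf1, Dnmt1, Dnmt3l, Dnmt3b, Tet2, Tet1, Dnmt3a and Tet3, with no overlap between neighbours. In T6B_MUT, the control of Experiment 2, levels were 50.5 ± 0.775 RPKM for Dnmt3l, 17.1 ± 0.250 for Dnmt3b and 6.36 ± 0.225 for Dnmt3a. The experiments were not tested against each other, and changes below are within one experiment unless stated.

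**Figure D1:**
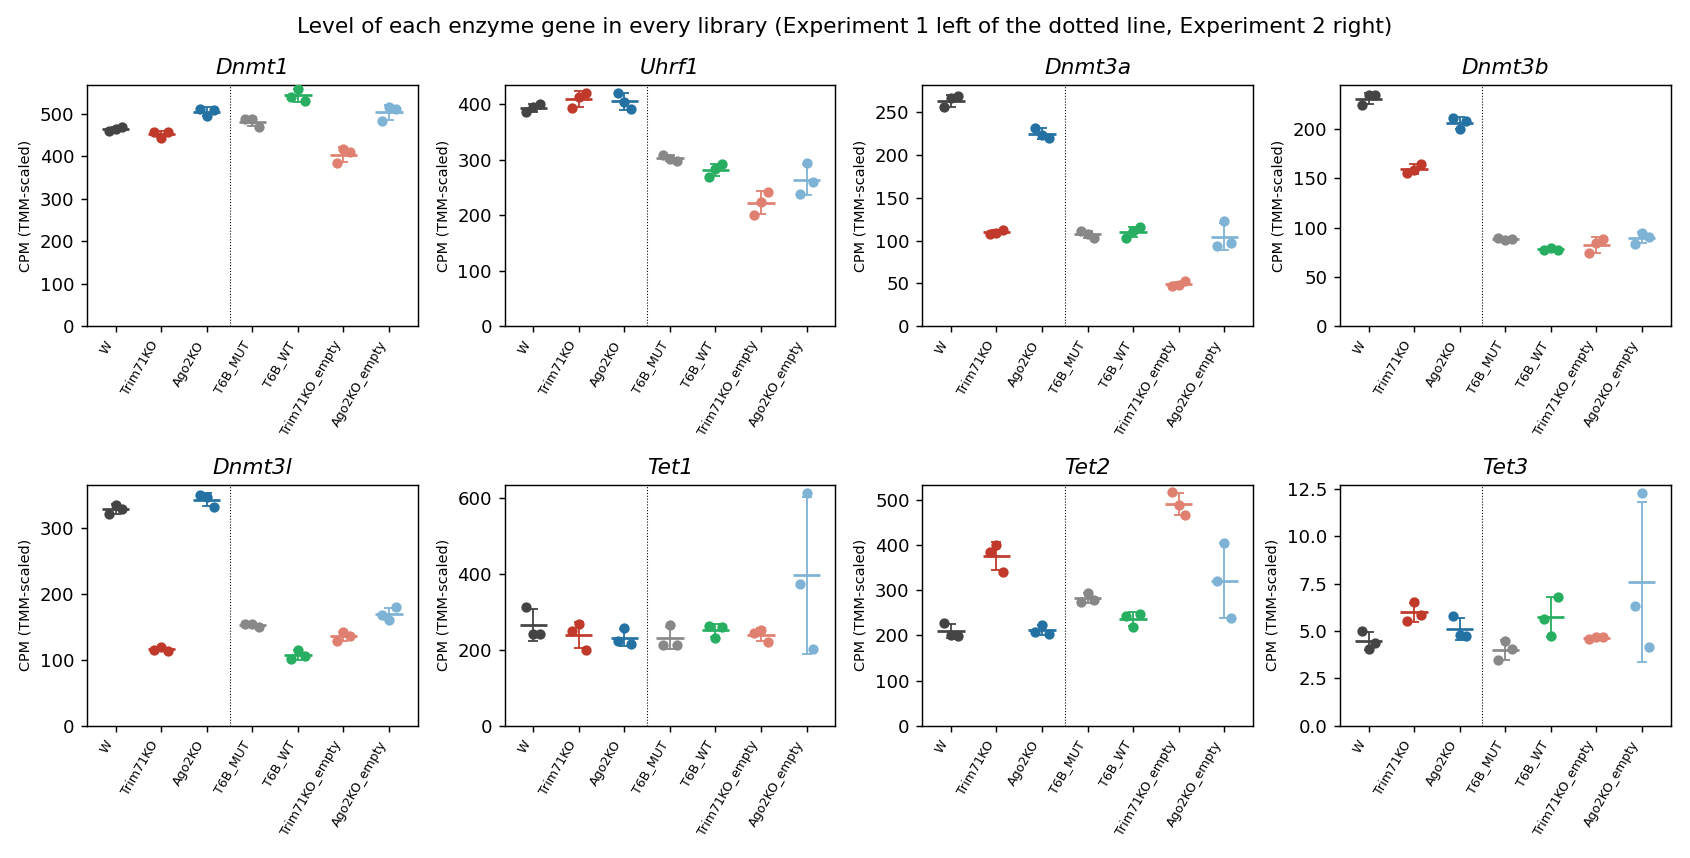
TMM-scaled CPM of the 8 genes (one panel each, y axis from 0) in the 21 libraries, by group. Points are libraries, horizontal lines are means and error bars are SD (n = 3). Dnmt3a lies at 107 to 113 CPM in Trim71KO against 256 to 269 in W, and Tet1 spreads from 204 to 613 CPM in the libraries labelled Ago2KO_empty.

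Loss of Trim71 in Experiment 1 went with lower RNA of all 3 de novo genes and higher RNA of Tet2 and Tet3. Of the 8 genes, 2 were called higher and 3 lower in Trim71KO against W (edgeR quasi-likelihood test, adjusted p under 0.05), where 16.9% of the 21210 tested genes rose and 15.6% fell. The median log2 fold change was -0.09 over the 8 genes and close to 0 over all tested genes.

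Dnmt3l, the stimulatory cofactor, had 114, 120 and 114 CPM in Trim71KO and 321, 335 and 329 CPM in W. No Trim71KO library came near a W library, and the change in log2 was -1.50 (SE 0.04, adjusted p = 2.39e-11), or 2.83-fold lower. Dnmt3a, a catalytic de novo enzyme, had 107, 108 and 113 CPM in Trim71KO and 256, 267 and 269 CPM in W. This was a change of -1.27 in log2 (SE 0.05, adjusted p = 1.77e-10), again with well separated groups. Dnmt3b, the other catalytic de novo enzyme, changed less, from 225, 235 and 234 CPM in W to 155, 159 and 165 CPM in Trim71KO (log2 fold change -0.53, SE 0.05, adjusted p = 6.65e-07). All 3 calls held under each of the 14 alternatives run.

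Tet2, a methylcytosine oxidase, moved the other way. It had 385, 400.4 and 341 CPM in Trim71KO against 227, 202 and 198 CPM in W, a change of 0.85 in log2 (SE 0.07, adjusted p = 3.78e-07). Tet3 had 5.52, 6.53 and 5.87 CPM in Trim71KO against 5.02, 4.06 and 4.35 CPM in W, a change of 0.41 in log2 (SE 0.12, adjusted p = 0.0138). The Tet3 groups were separate by a small margin, and the call was lost without W replicate 2 (adjusted p = 0.0706), W replicate 3 (0.0515) or Trim71KO replicate 2 (0.0633). Dnmt1 (log2 fold change -0.04), its partner Uhrf1 (0.06) and Tet1 (-0.15) were not called.

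Markers of other cell types moved in the same comparison. The sum of 6 primitive endoderm markers was 30.0 to 32.1 CPM in W and 4.72 to 4.86 CPM in Trim71KO, with 5 and 2 of the 6 over 1 CPM. The sum of 3 epiblast-like markers was 39.2 to 41.0 CPM in W and 26.2 to 28.2 CPM in Trim71KO, with 2 of the 3 over 1 CPM in each. The sum of 5 markers of 2-cell-like cells, a rare state of embryonic stem cell cultures, was 10.98 to 12.4 CPM in W and 0.628 to 1.08 CPM in Trim71KO, with 3 and 0 of the 5 over 1 CPM. No marker of these lists was at 0 in every library of either group. Not every sum fell. In Trim71KO against W, the sum of neural markers was 128 to 155 against 106 to 120 CPM. The fibroblast or feeder sum was 11.9 to 12.98 against 9.11 to 9.43 CPM, and the mesoderm sum 4.11 to 4.89 against 3.88 to 4.04 CPM. The embryonic stem cell sum was 4689 to 5029 against 4091 to 4338 CPM. The trophoblast sum was lower, at 16.4 to 18.4 against 23.2 to 26.3 CPM. Sox7, a primitive endoderm marker, overlapped between groups (mean 1.78 against 1.98 CPM). The part of these markers in the Dnmt3 and Tet values was not tested. In bulk RNA, fewer cells of a type and less RNA per cell cannot be told apart.

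In Ago2KO, Dnmt3a and Dnmt3b were slightly lower and Dnmt1 slightly higher than in W. Of the 8 genes, 1 was called higher and 2 lower in Ago2KO against W, where 10.2% of tested genes rose and 7.78% fell. Both comparisons share the W libraries.

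Dnmt3a had 232, 223 and 219.8 CPM in Ago2KO, below the 256 to 269 CPM of W, a change of -0.23 in log2 (SE 0.04, adjusted p = 0.00227). Dnmt3b had 211, 200.01 and 209 CPM, a change of -0.16 in log2 (SE 0.05, adjusted p = 0.0227). Dnmt1, the maintenance enzyme, had 512, 494 and 510 CPM against 459, 464 and 469 CPM, a change of 0.12 in log2 (SE 0.04, adjusted p = 0.0395). The Dnmt1 call was lost in 9 of 14 alternatives and the Dnmt3b call in 4, while the Dnmt3a call held in all 14. Dnmt3l, which changed most in Trim71KO, had 349, 347 and 331 CPM in Ago2KO and was not called (log2 fold change 0.06, 95% interval -0.03 to 0.16). Tet1 (-0.19), Tet2 (0.02), Tet3 (0.19) and Uhrf1 (0.04) were not called either. Against the W sums above, the primitive endoderm sum was 8.52 to 9.89 CPM in Ago2KO with 4 of 6 markers over 1 CPM, the epiblast-like sum 28.5 to 28.9 CPM with 2 of 3, and the 2-cell-like sum 2.25 to 2.89 CPM with 0 of 5. Other sums were higher in Ago2KO than in W. The neural sum was 134 to 148 against 106 to 120 CPM, and the trophoblast sum 32.5 to 36.5 against 23.2 to 26.3 CPM. The part of these markers in the values of Ago2KO was not tested.

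Set directly against Ago2KO, Trim71KO had 1 of the 8 genes called higher and 4 lower, with 17.1% of tested genes called higher and 17.1% lower. Dnmt3l differed by a change of -1.56 in log2 (SE 0.05, adjusted p = 8.24e-12), Dnmt3a by -1.04 (SE 0.05, adjusted p = 5.96e-10), Dnmt3b by -0.37 (adjusted p = 1.66e-05) and Dnmt1 by -0.16 (adjusted p = 0.00503). Tet2 differed by 0.83 (SE 0.07, adjusted p = 3.77e-07). The 2 knockouts therefore differed from each other in 5 of the 8 genes, beyond their replicate spread.

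**Figure D2:**
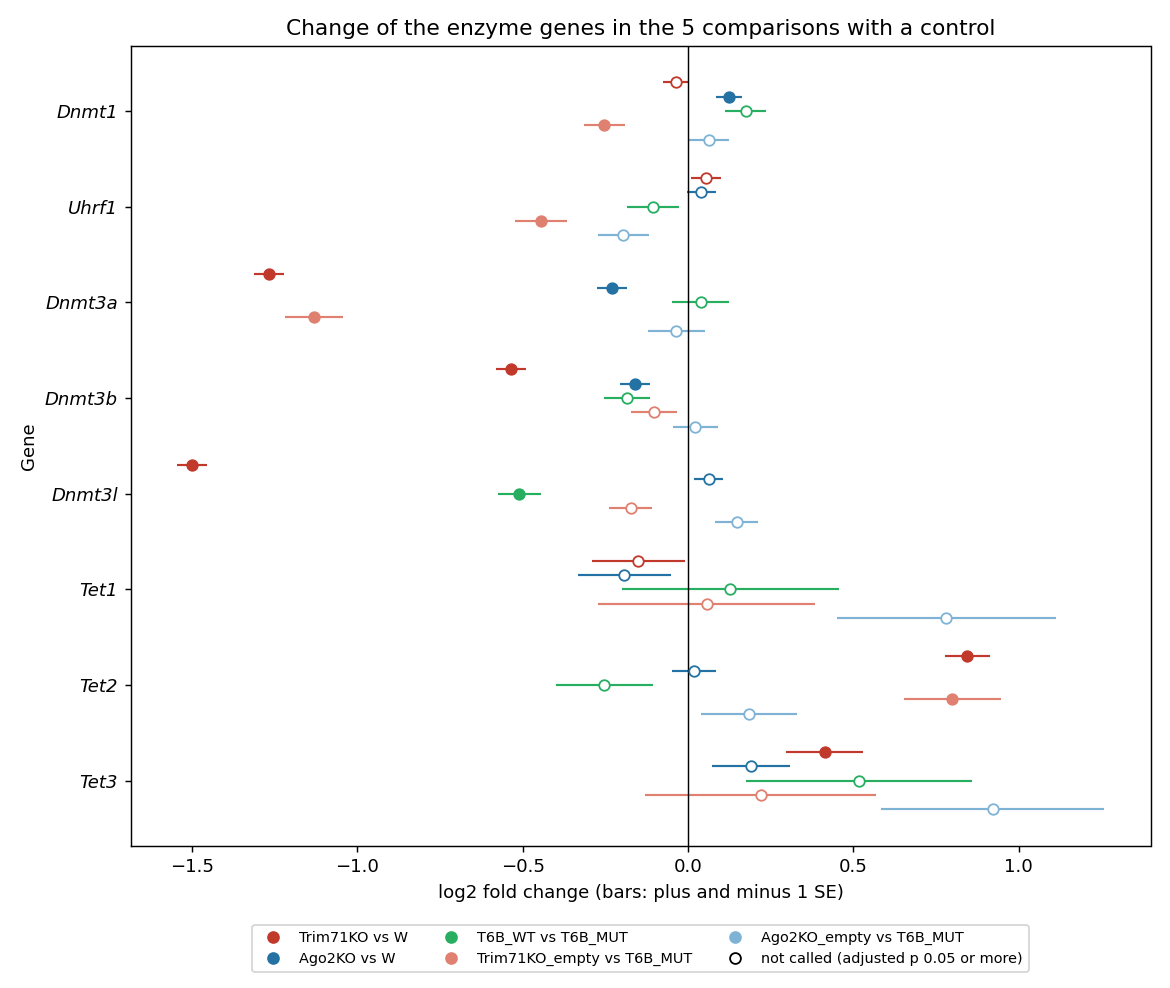
Log2 fold change (x axis) of the 8 genes (y axis) in the 5 comparisons with a control, each with a bar of plus and minus 1 SE. Filled points passed an adjusted p of 0.05. Dnmt3l is called lower in Trim71KO (-1.50) and T6B_WT (-0.51), and Dnmt3a in both Trim71 knockouts (-1.27 and -1.13).

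Blocking Argonaute with T6B lowered Dnmt3l. In T6B_WT against T6B_MUT, 0 of the 8 genes were called higher and 1 lower, where 9.29% of the 21505 tested genes rose and 6.69% fell. Dnmt3l had 101, 115 and 106 CPM in T6B_WT against 154, 154 and 150 CPM in T6B_MUT, with no overlap. The change in log2 was -0.51 (SE 0.07, adjusted p = 2.86e-05), and the call held in all 16 alternatives.

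Dnmt1 had 541, 559 and 530.0 CPM in T6B_WT against 488, 488 and 469 CPM (log2 fold change 0.17, SE 0.06, adjusted p = 0.0603). Dnmt3b had 77.2, 78.9 and 77.6 CPM against 89.6, 87.4 and 88.4 CPM (log2 fold change -0.18, SE 0.07, adjusted p = 0.0815). Both sets of libraries were separate, yet neither gene passed the test. Tet2 (-0.25, adjusted p = 0.294) and Tet3 (0.52, adjusted p = 0.378) also had separate groups. A fit of these 2 groups alone called 5 genes, namely Dnmt3l, Dnmt1 (adjusted p = 0.0166), Dnmt3b (0.00714), Tet2 (0.00145) and Tet3 (0.00612). A fit that excluded only the libraries labelled Ago2KO_empty called the same 5, with adjusted p of 0.0398 for Dnmt1, 0.0338 for Dnmt3b, 0.00472 for Tet2 and 0.00709 for Tet3. A fit that excluded only Trim71KO_empty called 2, Dnmt3l and Dnmt3b (0.0387). Dnmt3a was 103, 112 and 115 CPM in T6B_WT and 111, 108 and 103 CPM in T6B_MUT, with overlapping groups (log2 fold change 0.04, 95% interval -0.14 to 0.22).

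The 2-cell-like sum was 72.1 to 74.5 CPM in T6B_WT and 15.0 to 16.2 CPM in T6B_MUT, with 5 and 3 of the 5 over 1 CPM. None was at 0 in every library of a group. The primitive endoderm sum was 18.6 to 21.5 CPM in T6B_WT and 22.3 to 23.3 CPM in T6B_MUT, with 4 and 5 of the 6 over 1 CPM. Other sums were higher in T6B_WT, such as the neural sum (117 to 128 against 96.0 to 103 CPM). The trophoblast sum was 21.7 to 21.9 against 16.7 to 17.2 CPM. The epiblast-like sum was 26.9 to 29.6 against 25.0 to 26.6 CPM, and the mesoderm sum 4.91 to 6.50 against 4.30 to 4.80 CPM. The part of these markers in the Dnmt3l value was not tested.

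The T6B effect on Dnmt3l exceeded that of Ago2KO. The difference of the 2 log2 fold changes was -0.57 (SE 0.08, adjusted p = 7.23e-05), where 3.16% of 22258 tested genes were called in either direction. None of the other 7 genes was called for this difference. The largest of those by unadjusted p was Dnmt3a, at 0.27 (SE 0.10, adjusted p = 0.202).

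In Experiment 2, Trim71KO_empty again had less Dnmt3a and more Tet2 than its control, but the other genes called were not those of Experiment 1. Dnmt3l, called lower in Experiment 1, lay lower again without passing the test. Of the 8 genes, 1 was called higher and 3 lower against T6B_MUT, where 14.4% of tested genes rose and 13.4% fell.

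Dnmt3a had 46.6, 48.0 and 52.2 CPM in Trim71KO_empty against 111, 108 and 103 CPM in T6B_MUT, a change of -1.13 in log2 (SE 0.09, adjusted p = 3.08e-08). Tet2 had 517, 488 and 467 CPM against 274, 295 and 278 CPM, a change of 0.80 in log2 (SE 0.15, adjusted p = 0.00192). Both genes had well separated groups, and the change in Experiment 2 differed from that in Experiment 1 by 0.14 for Dnmt3a (95% interval -0.07 to 0.35) and by -0.04 for Tet2 (95% interval -0.40 to 0.31), neither of them called.

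Dnmt3l had 129, 142 and 135 CPM in Trim71KO_empty against 154, 154 and 150 CPM in T6B_MUT, a change of -0.17 in log2 (SE 0.07, adjusted p = 0.0546). It passed the test in 5 of 15 alternatives, among them the fit of the 2 groups alone (adjusted p = 0.0185) and the fit without the libraries labelled Ago2KO_empty (0.0190). Dnmt3b had 74.0, 84.2 and 89.0 CPM and overlapped the control (log2 fold change -0.10, adjusted p = 0.293). The Trim71 effect was weaker in Experiment 2 than in Experiment 1 for both genes, by 1.33 for Dnmt3l (SE 0.08, adjusted p = 4.71e-11) and by 0.43 for Dnmt3b (SE 0.09, adjusted p = 0.00145) on the log2 scale. In this test of the difference, 2 of the 8 genes were called higher and 1 lower, and 10.1% of 22258 genes were called in either direction. Control levels differed too, with 328 ± 7.14 CPM of Dnmt3l in W and 153 ± 2.76 CPM in T6B_MUT (SD, n = 3).

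The maintenance pair fell in Trim71KO_empty. Uhrf1 had 201, 224 and 242 CPM against 308, 301 and 298 CPM in T6B_MUT, a change of -0.44 in log2 (SE 0.08, adjusted p = 0.000331). Dnmt1 had 385, 417 and 410.2 CPM against 488, 488 and 469 CPM, a change of -0.25 in log2 (SE 0.06, adjusted p = 0.00449). Neither gene was called in Trim71KO against W. The difference between experiments was called for Uhrf1 (-0.50, SE 0.10, adjusted p = 0.000969) and not for Dnmt1 (-0.22, SE 0.07, adjusted p = 0.0549). Of 17 S phase genes, 12 fell and 0 rose in Trim71KO_empty against T6B_MUT, against 4 down and 4 up in Trim71KO against W. Over all tested genes, 13.4% fell and 14.4% rose in the former, and 15.6% and 16.9% in the latter. For Ago2KO_empty 5 of the 17 fell and 0 rose, where 12.4% of tested genes fell and 16.4% rose. These 5 became 4 to 10 with 1 replicate left out, and 4 without replicate 2. In Ago2KO 1 fell and 0 rose, and in T6B_WT 2 fell and 0 rose. With 1 replicate left out, 8 to 11 of the S phase genes fell in Trim71KO_empty. The most changed was Ccne1, which encodes cyclin E1, at a change of -1.45 in log2 (SE 0.13, adjusted p = 4.9e-06). Ccne1 was also called lower in Trim71KO against W (-0.96, adjusted p = 1.26e-09). For Ago2KO_empty it was called lower at -0.54 (adjusted p = 0.00774), or -0.61 without replicate 2 (0.0170). It was not called in Ago2KO (-0.09) or T6B_WT (-0.16). The primitive endoderm sum was 9.29 to 10.7 CPM in Trim71KO_empty with 3 of 6 markers over 1 CPM, against 22.3 to 23.3 CPM in T6B_MUT. The sum of the trophoblast markers was 10.2 to 11.3 CPM against 16.7 to 17.2 CPM, with 1 over 1 CPM in each, and the epiblast-like sum was 19.4 to 23.3 CPM against 25.0 to 26.6 CPM. The 2-cell-like sum, which was lower in Trim71KO, was 15.6 to 16.7 CPM in Trim71KO_empty against 15.0 to 16.2 CPM in T6B_MUT. The fibroblast or feeder sum was higher, at 10.7 to 11.4 against 5.81 to 6.96 CPM. The mesoderm sum was higher too, at 5.58 to 6.95 against 4.30 to 4.80 CPM. The part of S phase genes and of these markers in the values of Trim71KO_empty was not tested.

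Promoters of this pair are shown because both genes fell together and are known E2F targets, and E2F motifs were searched in the RefSeq promoters (GRCm38.p6, from 250 bases before to 50 after each start). The motifs were TTTCCCGC, TTTGGCGC, TTTGCCGC and TTTCGCGC on both strands. Of 32851 promoters, 2.26% held at least one. One Dnmt1 promoter at chr9:20952574-20952873 (minus strand) and one Uhrf1 promoter at chr17:56304063-56304362 (plus strand) held a match, in capitals below, 5′ to 3′ on the strand of the gene. No promoter of the other 6 genes or of Rbl2 held these letters.
Dnmt1: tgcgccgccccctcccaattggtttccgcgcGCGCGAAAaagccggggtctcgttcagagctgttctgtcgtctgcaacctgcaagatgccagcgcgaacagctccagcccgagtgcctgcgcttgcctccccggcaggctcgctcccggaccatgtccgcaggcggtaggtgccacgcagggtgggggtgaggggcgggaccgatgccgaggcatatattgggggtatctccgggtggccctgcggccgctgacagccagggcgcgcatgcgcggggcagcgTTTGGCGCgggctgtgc
Uhrf1: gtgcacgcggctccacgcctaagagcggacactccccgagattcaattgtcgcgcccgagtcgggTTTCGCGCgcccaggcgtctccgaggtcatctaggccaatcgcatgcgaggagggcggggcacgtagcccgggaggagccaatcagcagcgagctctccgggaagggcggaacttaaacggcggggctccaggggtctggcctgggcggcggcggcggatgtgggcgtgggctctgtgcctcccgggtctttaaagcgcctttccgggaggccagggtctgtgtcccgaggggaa
The Dnmt1 window holds TTTCGCGC on the opposite strand and TTTGGCGC on the strand of the gene, and the Uhrf1 window holds TTTCGCGC. A match is a description of the sequence and not evidence of binding.

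In the libraries labelled Ago2KO_empty, 0 of the 8 genes were called higher and 0 lower against T6B_MUT (edgeR), where 16.4% of tested genes rose and 12.4% fell. At an unadjusted p under 0.05 there were 4, namely Dnmt3l, Uhrf1, Tet1 and Tet3, and DESeq2 called 2. The 2-cell-like sum was 52.1 to 63.5 CPM in these libraries, against 15.0 to 16.2 CPM in T6B_MUT, with 5 and 3 of the 5 markers over 1 CPM, and its part in the values was not tested.

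The Tet genes separated these libraries from one another. Tet1 had 372, 613 and 204 CPM in the libraries labelled Ago2KO_empty against 214, 264 and 214 CPM in T6B_MUT, and Tet3 had 6.33, 12.3 and 4.16 CPM against 3.47, 4.48 and 4.04 CPM. Tet2 had 320.2, 404 and 238 CPM against 274, 295 and 278 CPM. For all 3 genes replicate 2 was highest and replicate 3 lowest, which is also the order of Ago2 RNA in these libraries. Log2 fold changes were 0.78 for Tet1 (SE 0.33, adjusted p = 0.113), 0.19 for Tet2 (SE 0.15, adjusted p = 0.370) and 0.92 for Tet3 (SE 0.34, adjusted p = 0.0710). Without replicate 2 they were 0.30, -0.03 and 0.38 and not called. Without replicate 3 they were 1.07 (adjusted p = 0.00294), 0.33 (0.00389) and 1.19 (0.00164), all called.

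Transcript length moved with this spread. The deposited lengths of Tet1, Tet2, Tet3 and Dnmt3a are 15457 to 16870 bases, within the longest of 5 length classes of tested genes. Between replicates 2 and 3 of these libraries, the median log2 difference of the longest class lay 0.40 from that of the shortest class, against at most 0.17 in any replicate pair of the other groups. Against T6B_MUT, the longest class had a median log2 fold change of 0.18 and the shortest -0.14. Ago2, at 142 CPM and 10.3 RPKM in W, is by these scales also in the longest class. The part of length in the Tet and Ago2 values was not tested.

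**Figure D3:**
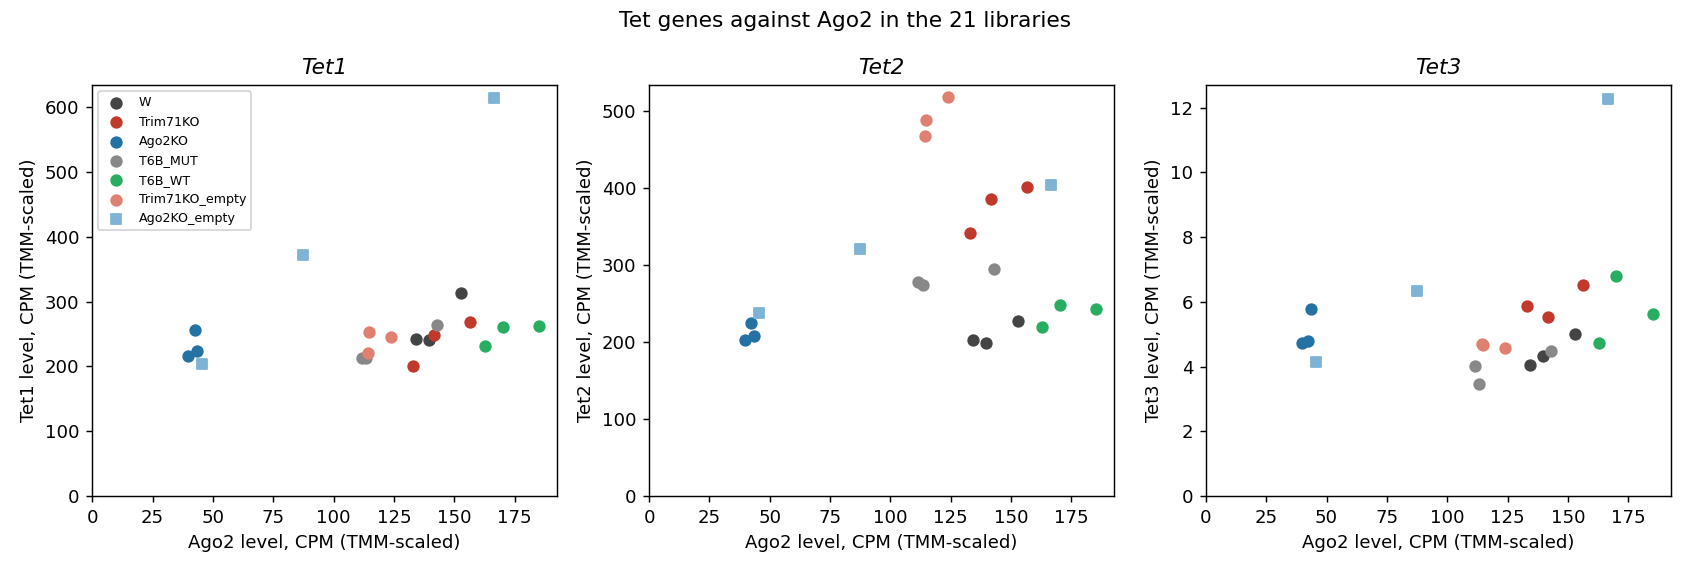
TMM-scaled CPM of Tet1, Tet2 and Tet3 (y axes) against Ago2 (x axes) in the 21 libraries, 1 point per library, coloured by group, with squares for libraries labelled Ago2KO_empty. The square with 167 CPM of Ago2 has the highest Tet1 (613 CPM) and Tet3 (12.3 CPM) of all libraries.

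The methyltransferase genes were steadier in these libraries. Dnmt3l had 168, 160.1 and 179 CPM (log2 fold change 0.15, adjusted p = 0.0964), Dnmt3b had 83.9, 94.9 and 90.9 CPM (0.02) and Dnmt1 had 482, 516 and 512 CPM (0.06). Dnmt3a had 93.6, 123 and 97.2 CPM (-0.03), with replicate 2 above every T6B_MUT library and replicates 1 and 3 below every one. Its value ranged from -0.19 to 0.02 over the 14 alternatives, none of them called. Uhrf1 had 239, 294 and 260 CPM (-0.20, SE 0.08, adjusted p = 0.0692), and without replicate 2 the value was -0.30 (adjusted p = 0.00834). For the difference of the Ago2 effect between experiments, 0 of the 8 genes were called by edgeR or DESeq2, 2 (Uhrf1 and Tet1) had an unadjusted p under 0.05, and 2.13% of all genes were called in either direction. Without replicate 3 labelled Ago2KO_empty, a fit that keeps replicate 2, Tet1 (1.27, adjusted p = 0.00864) and Tet3 (1.00, adjusted p = 0.0229) were called. Neither was called in any other of the 19 alternatives, that without replicate 2 included. Over these alternatives the values fell to 0.51 for Tet1 and 0.20 for Tet3.

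Trim71KO_empty against the libraries labelled Ago2KO_empty gave 1 of the 8 genes called higher and 4 lower, with 14.7% of tested genes called higher and 16.9% lower. Dnmt3a (-1.10, adjusted p = 2.84e-08), Dnmt3l (-0.32, adjusted p = 0.000922) and Dnmt1 (-0.32, adjusted p = 0.000602) were lower and Tet2 (0.61, adjusted p = 0.00780) was higher in Trim71KO_empty under every alternative. Uhrf1 (-0.25, adjusted p = 0.0212) had overlapping groups and lost its call in 4 of 14 alternatives, among them without the library labelled Ago2KO_empty replicate 2 (adjusted p = 0.147).

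Rbl2, the repressor placed between the miR-290 family and the Dnmt3 genes in earlier work, passed the test as higher in each of the 5 comparisons with a control, which share W or T6B_MUT. It had 9.26, 9.67 and 9.57 CPM in Trim71KO and 8.67, 8.16 and 9.71 CPM in Ago2KO, against 7.17, 5.60 and 6.26 CPM in W. In Experiment 2 it had 16.8, 15.0 and 15.7 CPM in T6B_WT, 18.9, 16.5 and 15.8 CPM in Trim71KO_empty and 22.7, 20.6 and 17.8 CPM in the libraries labelled Ago2KO_empty, against 11.8, 12.01 and 11.99 CPM in T6B_MUT. No library of these groups overlapped its control. Log2 fold changes were 0.58 in Trim71KO (SE 0.10, adjusted p = 0.000440), 0.49 in Ago2KO (SE 0.10, adjusted p = 0.00363), 0.41 in T6B_WT (SE 0.09, adjusted p = 0.00569), 0.52 in Trim71KO_empty (SE 0.09, adjusted p = 0.000428) and 0.77 for Ago2KO_empty (SE 0.09, adjusted p = 9.84e-06), or 0.75 without replicate 2 (adjusted p = 2.11e-05).

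Rbl2 was not called between Trim71KO and Ago2KO (log2 difference 0.10, 95% interval -0.12 to 0.31, adjusted p = 0.496). Whether the Rbl2 and Dnmt3 values are related was not tested. Rbl1, a related pocket protein, was called higher in Trim71KO (1.05, SE 0.07, adjusted p = 6.12e-08) and in Trim71KO_empty (0.66, SE 0.07, adjusted p = 2.73e-06). It was not called in Ago2KO (-0.17), T6B_WT (-0.04) or Ago2KO_empty (-0.02). Rbl2 lies on chromosome 8, where the median gene had a log2 fold change of 0.19 in Trim71KO against W. That median was also 0.19 in Trim71KO against Ago2KO, and 0.09 in Trim71KO_empty against T6B_MUT. The medians of the chromosomes of the 8 genes lay between -0.09 and 0.08 in all comparisons.

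Seed matches are shown because the study concerns microRNA silencing. The miR-290 and miR-302 families of stem cells and the miR-29 family, known to target Dnmt3a, Dnmt3b and Tet genes, have these mature sequences from RefSeq, 5′ to 3′ with bases 2 to 8 (the seed) in capitals.
miR-291a-3p: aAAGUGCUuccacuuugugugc
miR-294-3p: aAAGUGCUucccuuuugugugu
miR-302b-3p: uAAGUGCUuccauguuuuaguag
miR-29a-3p: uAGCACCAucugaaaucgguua
miR-29b-3p: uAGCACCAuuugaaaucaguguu
The first 3 share the seed AAGUGCU, whose match in an mRNA is AGCACTT, and the last 2 share AGCACCA, matched by TGGTGCT. Of 14899 genes with a 3′ UTR in GENCODE M21 (GRCm38), 15.4% held AGCACTT and 14.0% held TGGTGCT. The longest 3′ UTRs hold more matches of any kind, and the median length was 983 bases.

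AGCACTT occurred 2 times in the 3′ UTR of Tet1 (7955 bases), 1 time in Tet2 (3058 bases), 3 times in Tet3 (5669 bases) and 1 time in Rbl2 (1398 bases). It did not occur in those of Dnmt1 (312 bases), Dnmt3a (6696 bases), Dnmt3b (1331 bases), Dnmt3l (273 bases) or Uhrf1 (984 bases). TGGTGCT occurred 5 times in Dnmt3a, 1 time in Dnmt3b, 7 times in Tet1, 5 times in Tet2 and 8 times in Tet3. The matches of Rbl2 (chr8:91123819-91123844, plus strand) and Tet2 (chr3:133465904-133465932, minus strand), and the miR-29 matches of Dnmt3b (chr2:153686616-153686644, plus strand) and of Dnmt3a nearest the stop codon (chr12:3908561-3908589, plus strand), are printed with the match in capitals.
Rbl2: tttttcaataaAGCACTTataaatta
Tet2: tgtcttagaaaAGCACTTtgcctacctaa
Dnmt3b: gtagcccggcaTGGTGCTcatgttctctt
Dnmt3a: cgacttcataaTGGTGCTttcaaaacagc
Whether these matches bear on the levels of the genes was not tested.

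Other genes of the methylation system were counted from lists of related function. Over all tested genes, 16.9% were higher and 15.6% lower in Trim71KO, 10.2% and 7.78% in Ago2KO, 9.29% and 6.69% in T6B_WT, 14.4% and 13.4% in Trim71KO_empty, and 16.4% and 12.4% for Ago2KO_empty. The counts are to be read against these shares, and nothing particular to a list was tested. Among 12 regulators of de novo methylation, 6 rose and 1 fell in Trim71KO against W, with a median log2 fold change of 0.15. The largest increase was that of Rbl1, and the decrease was that of Kdm2b, a CpG-island demethylase of histone H3 (-0.67, SE 0.05, adjusted p = 3.8e-07). In Ago2KO 2 rose, Rbl2 and Prdm14, which encodes a repressor of Dnmt3 genes (0.38, SE 0.06, adjusted p = 0.00055), and 0 fell. In T6B_WT 3 rose and 2 fell, with Prdm14 at 0.47 (SE 0.07, adjusted p = 0.00012) as the largest increase. In Trim71KO_empty 4 rose and 2 fell, with the histone methyltransferase gene Nsd2 at -0.91 (SE 0.13, adjusted p = 0.00013), and for Ago2KO_empty 4 rose (2 without T6B_MUT replicate 3, and 3 without Ago2KO_empty replicate 2) and 1 fell.

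Prdm14 was called higher in all 5 comparisons with a control. Its levels were 29.8 ± 1.1 CPM in W, 43.9 ± 1.4 in Trim71KO and 38.7 ± 2.6 in Ago2KO, and 29.0 ± 1.5 in T6B_MUT, 40.04 ± 2.3 in T6B_WT, 39.8 ± 0.74 in Trim71KO_empty and 35.3 ± 1.8 CPM for Ago2KO_empty (SD, n = 3). Nanog, a pluripotency factor that partners with TET1, was likewise called higher in the 5 comparisons, most in Trim71KO (0.69, SE 0.05, adjusted p = 5.8e-08). The Nanog call in T6B_WT was lost without T6B_WT replicate 2 or 3 or any one T6B_MUT library, and that for Ago2KO_empty in 5 of 14 alternatives, among them without replicate 2 (0.16, adjusted p = 0.0842). Prdm14 for Ago2KO_empty was 0.28, or 0.30 without replicate 2 (adjusted p = 0.00575), and its call was lost without T6B_MUT replicate 3.

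Of 12 partners of maintenance methylation, 2 rose and 3 fell in Trim71KO, 1 rose and 2 fell in Ago2KO, 0 were called in T6B_WT, 2 rose and 6 fell in Trim71KO_empty, and 0 rose and 2 fell for Ago2KO_empty. The median log2 fold change in Trim71KO_empty was -0.21, against 0.00 over all tested genes. The 6 lower calls became 3 without T6B_MUT replicate 3 or Trim71KO_empty replicate 1. The largest decrease there was that of Ehmt2, a histone H3 lysine methyltransferase (-0.51, SE 0.07, adjusted p = 2.6e-05), and the largest increase that of Nlrp14 (1.14, SE 0.30, adjusted p = 0.0080). Among the other 3 methyltransferase family genes tested, the rodent germline enzyme Dnmt3c fell in Trim71KO (-0.40, SE 0.08, adjusted p = 0.00095), at 7.84 ± 0.25 CPM against 10.4 ± 0.52 CPM in W. Dnmt3c arose as a copy of Dnmt3b, and reads shared by both would leave its value uncertain. Uhrf2, a relative of Uhrf1, rose in Trim71KO (0.25), Trim71KO_empty (0.21) and Ago2KO_empty (0.26, or 0.28 without replicate 2). The call in Trim71KO_empty was lost in 5 of 15 alternatives, among them without T6B_MUT replicate 1 or 2 or Trim71KO_empty replicate 1 or 2.

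Of 12 TET cofactors and partners tested, 3 rose and 3 fell in Trim71KO, 4 and 2 in Ago2KO, 3 and 1 in T6B_WT, 1 and 3 in Trim71KO_empty, and 2 and 1 for Ago2KO_empty. The 3 higher calls in Trim71KO became 1 without W replicate 2 or 3 or Trim71KO replicate 1 or 2 and 5 without W replicate 1, and the 3 in T6B_WT became 1 without T6B_MUT replicate 3. The 2 higher calls for Ago2KO_empty became 0 without any one T6B_MUT library, 1 without Ago2KO_empty replicate 1 or 2 and 4 without replicate 3, and the 1 lower call became 2 without replicate 2 or 3. Idh1, whose product makes the TET cosubstrate, was the largest increase in Ago2KO (0.36, SE 0.05, adjusted p = 0.00038) and in T6B_WT (0.39, SE 0.07, adjusted p = 0.00073). Of 16 genes of excision repair, 4 rose and 3 fell in Trim71KO, where Gadd45g had the largest decrease (-2.37, SE 0.28, adjusted p = 1.6e-05) and the glycosylase gene Neil3 the largest increase (0.77, SE 0.13, adjusted p = 0.00042). In Ago2KO 1 fell, the thymine DNA glycosylase gene Tdg (-0.44, SE 0.05, adjusted p = 2.6e-05), and 0 rose. In T6B_WT 0 rose and 2 fell, in Trim71KO_empty 3 rose and 3 fell, and for Ago2KO_empty 2 rose and 4 fell. The lower calls became 5 in Trim71KO without Trim71KO replicate 3, 1 in Trim71KO_empty without T6B_MUT replicate 1 or 3, and 2 for Ago2KO_empty without T6B_MUT replicate 1 or Ago2KO_empty replicate 1. The 2 higher calls for Ago2KO_empty became 0 without any one T6B_MUT library or Ago2KO_empty replicate 1 and 1 without replicate 2 or 3, and the 1 lower call in Ago2KO became 3 without W replicate 1.

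Among 8 methyl-CpG readers, 3 rose and 1 fell in Trim71KO, 3 and 1 in Ago2KO, 2 and 0 in T6B_WT, 3 and 1 in Trim71KO_empty, and 5 and 1 for Ago2KO_empty, where the 5 became 3 without T6B_MUT replicate 2, T6B_MUT replicate 3 or Ago2KO_empty replicate 1 and 4 without Ago2KO_empty replicate 2. The 1 lower call there became 2 without Ago2KO_empty replicate 2 or T6B_MUT replicate 3 and 0 without T6B_MUT replicate 1 or 2. Zbtb38 was called higher in each comparison, most in T6B_WT (0.54, SE 0.07, adjusted p = 4.2e-05). Of 15 genes of S-adenosylmethionine supply, 0 rose and 9 fell in Trim71KO_empty, with a median of -0.19. The other counts were 4 up and 6 down in Trim71KO, 1 and 4 in Ago2KO, 2 and 5 in T6B_WT, and 2 and 4 for Ago2KO_empty. The 4 higher calls in Trim71KO became 1 or 2 without any one of its 6 libraries. The 5 lower calls in T6B_WT became 3 without T6B_WT replicate 2 or 3 or T6B_MUT replicate 1 or 2, and the 4 for Ago2KO_empty became 2 without T6B_MUT replicate 1 or 2 or Ago2KO_empty replicate 1. Gldc, which encodes the glycine decarboxylase that feeds one-carbon metabolism, fell in all 5, by 1.00 in Ago2KO (SE 0.05, adjusted p = 1.7e-08) and by 1.04 for Ago2KO_empty (SE 0.08, adjusted p = 3.5e-08) on the log2 scale. Without Ago2KO_empty replicate 2, Gldc was at -1.06 (adjusted p = 2.9e-08).

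**Figure D4:**
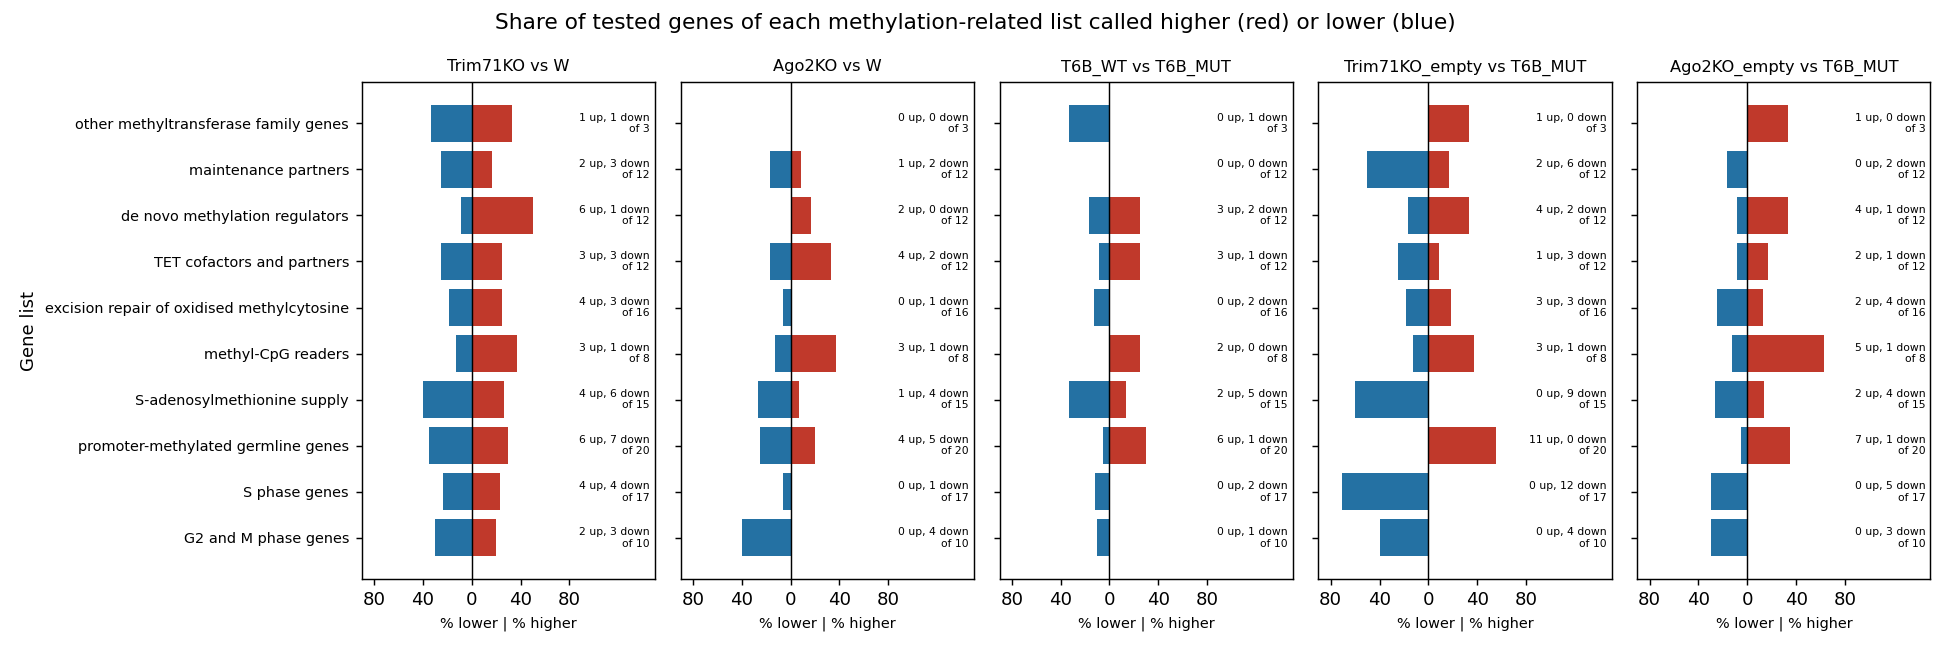
Share of the tested genes of each list called higher (red, right) or lower (blue, left) in the 5 comparisons with a control (x axis in percent, lists on the y axis), with the counts printed beside each bar. Of 20 germline genes, 11 are called higher and 0 lower in Trim71KO_empty, and 12 of 17 S phase genes are called lower there.

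Germline genes whose promoters are normally methylated were counted as well. Methylation was not measured, so the state of these promoters in these cells is not known. Of 20 such genes, 11 rose and 0 fell in Trim71KO_empty against T6B_MUT, with a median log2 fold change of 0.26 against 0.00 over all tested genes, of which 14.4% rose and 13.4% fell. In Trim71KO against W, 6 rose and 7 fell, with a median of -0.13. The other counts were 4 up and 5 down in Ago2KO, 6 and 1 in T6B_WT, and 7 and 1 for Ago2KO_empty. In T6B_WT a fit of only these 2 groups called 10 genes higher, and 3 were called without T6B_WT replicate 3 or T6B_MUT replicate 2. The 5 lower calls in Ago2KO became 2 without W replicate 1, W replicate 2 or Ago2KO replicate 1 and 3 without W replicate 3. The 11 higher calls in Trim71KO_empty ranged from 8 to 10 with 1 replicate left out. Those for Ago2KO_empty were again 7 and 1 without replicate 2.

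Asz1, a germ cell gene of the piRNA pathway, had the largest increase in both Trim71 knockouts. It had 1.46 to 1.83 CPM in Trim71KO against 0 to 0.0638 CPM in W (log2 fold change 5.18, SE 0.40, adjusted p = 2.4e-07), and 0.514 to 0.876 CPM in Trim71KO_empty against 0.0196 to 0.0520 CPM in T6B_MUT (4.19, SE 0.51, adjusted p = 6.3e-06). These levels are low, and the fitted fold changes rest on few reads in the controls. Dazl, a germ cell RNA-binding protein gene, rose from 14.7 ± 1.1 CPM in T6B_MUT to 68.8 ± 9.7 CPM in Trim71KO_empty (2.23, SE 0.10, adjusted p = 8.6e-11) and to 39.3 ± 3.0 CPM for Ago2KO_empty (1.42, SE 0.10, adjusted p = 3.6e-08, and 1.45 without replicate 2). In Experiment 1 it was 18.0 ± 2.3 CPM in W, 32.2 ± 3.0 in Trim71KO and 25.0 ± 2.9 in Ago2KO. Tex101 fell most in Trim71KO (-1.87, SE 0.30, adjusted p = 0.00023). Of 10 G2 and M phase genes, 0 rose and 4 fell in Trim71KO_empty, 2 rose and 3 fell in Trim71KO, 0 and 4 in Ago2KO, 0 and 1 in T6B_WT, and 0 and 3 for Ago2KO_empty. The 4 lower calls in Trim71KO_empty became 2 without Trim71KO_empty replicate 1. The 3 for Ago2KO_empty became 6 without Ago2KO_empty replicate 3 and 2 without replicate 2.

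Across the 21 libraries, after the mean of each experiment was subtracted, log2 CPM of the members followed one another in part. Dnmt3b and Dnmt3l had a Pearson r of 0.90, Tet1 and Tet3 of 0.80, Dnmt1 and Dnmt3a of 0.74, and Dnmt3a and Tet2 of -0.88. These describe 21 libraries of 7 groups that share batches and conditions, and no p was computed. Tet1 and Tet3 were both highest in the library labelled Ago2KO_empty replicate 2 (613 and 12.3 CPM). No r without that library was computed, here or for the genes most like a member. Over 12878 genes, those most like a member were Ccnd1 for Dnmt1 (r = 0.98), Ina for Dnmt3a (0.98), Acan for Dnmt3b (0.93), Extl1 for Dnmt3l (0.95), Gm5182 for Uhrf1 (0.92), Ddx6 for Tet1 (0.97), Nfib for Tet2 (0.98) and Eppk1 for Tet3 (0.93).

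In GENCODE M21 (GRCm38), several of these protein-coding genes overlap another gene. Dnmt1 (chromosome 9, 20907209 to 20959888, minus strand) contains Mir7081, and Tet1 (chromosome 10, 62804570 to 62908996, minus strand) overlaps Gm48353 and Gm26479 on its own strand. Dnmt3a (chromosome 12, 3806007 to 3914443, plus strand), Dnmt3b (chromosome 2, 153649450 to 153687730, plus strand) and Tet2 (chromosome 3, 133463679 to 133545139, minus strand) overlap the opposite-strand genes Dnmt3aos, Dnmt3bos and Gm42567. Dnmt3l (chromosome 10, 78041947 to 78063622, plus strand) overlaps Aire, and Tet3 (chromosome 6, 83362373 to 83459084, minus strand) overlaps genes on both strands. Uhrf1 (chromosome 17, 56303321 to 56323486, plus strand) overlaps none. Whether counting used strand is not given in the sources used here, so reads of opposite-strand partners cannot be told apart from those of the members.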

How the data were processed

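RNA-seq libraries were made from total RNA with a stranded kit, per the labels' protocols. The tools named in the submitters' processing notes are bcl2fastq 2.17 and STAR 2.7.3a, and the builds GRCm38 and mm10, with no role given. The annotation, the counting settings and the use of strand are not given in the sources used here. The authors deposited raw read counts and RPKM values for 22512 genes in 21 libraries, per the file headers. The lowest row total was 17 counts, and 0 sample columns lacked a label match. Symbols were deposited for 17723 rows, and matching Ensembl IDs to a reference table of gene names brought this to 22492.

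Raw counts entered all tests. The 9 libraries of Experiment 1 and the 12 of Experiment 2 were fitted separately, and all 21 together for differences between experiments, with edgeR 4.0.16 in R 4.3.3 (robust quasi-likelihood, TMM, filterByExpr with a minimum count of 10, Benjamini-Hochberg over all tested genes, threshold 0.05). CPM were computed on TMM-scaled totals, and the deposited RPKM served only to compare levels between genes. Standard errors derive from the fold change and its F statistic, and 95% intervals from these and the degrees of freedom of the test. Depth was 29.6 to 57.9 M counts per library, and the chi-square statistic per degree of freedom between replicates was 3.74 to 86.4, so each library counted as 1 replicate. The method was tested on simulated counts.

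Groups came from titles and treatment labels. The members and the lists were chosen with earlier results of these data known. Named were the 8 members, Rbl2, the edited genes Trim71 and Ago2, the genes most like a member, and, per list, the called gene with the largest increase or decrease in a comparison with a control. Rbl1, and Nanog, Uhrf2, Dnmt3c, Prdm14, Zbtb38, Dazl and Gldc where they were not such extremes, were singled out after their values were seen. Likeness was Pearson r of log2 CPM (pseudocount 0.5; mean log2 CPM of at least 2). Gm14490, Cxxc4 and Vprbp of the lists, and Oct6, Mesp1, Elf5 and Postn of the markers, were not analysed here. Alternatives were other scalings, DESeq2 1.42.0, other low-count filters, a replicate block, leaving out each replicate, fitting only the groups compared and, added after seeing the data, fits excluding 1 whole group.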

Additional observations from a re-analysis of the deposited data

Results flagged for a closer look

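Effects that differed between groups in a direct test (edgeR quasi-likelihood, Benjamini-Hochberg adjusted) were found for 3 genes. The Trim71 effect on Dnmt3l was 1.33 higher on the log2 scale in Experiment 2 than in Experiment 1 (SE 0.08, adjusted p = 4.71e-11), and that on Dnmt3b was 0.43 higher (SE 0.09, adjusted p = 0.00145). Both estimates were negative in each experiment, but neither was called in Experiment 2. The Trim71 effect on Uhrf1 was -0.50 in Experiment 2 relative to Experiment 1 (SE 0.10, adjusted p = 0.000969). The T6B effect on Dnmt3l minus the Ago2KO effect was -0.57 (SE 0.08, adjusted p = 7.23e-05). The control, plasmid and experiment differ together in these comparisons and cannot be told apart.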

How the results depend on the processing

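Over 1264 alternative values of the members' log2 fold changes, 1211 kept their side of the threshold, 20 lost a call, 33 gained one and 0 reversed a called direction. Among the 1211 were 26 uncalled values that changed sign. Of 8 genes, Ago2KO against W had 3 called, and 1 to 2 with a replicate left out (1 without W replicate 2, W replicate 3 or Ago2KO replicate 2). T6B_WT against T6B_MUT had 1 of 8, 2 with DESeq2 or a filter of CPM over 1 in 3 libraries, 5 with the 2 groups alone or excluding the Ago2KO_empty group, and 2 excluding the Trim71KO_empty group. Over all genes this comparison had 3437 called, from 2045 (without T6B_MUT replicate 1) to 2497 with a replicate left out, and 5632 with the 2 groups alone. For Ago2KO_empty against T6B_MUT, 0 of 8 became 1 with DESeq2 size factors, upper-quartile scaling, plain totals or no filter, 2 with DESeq2, and 0 to 3 with a replicate left out (1 without Ago2KO_empty replicate 2 and 3 without replicate 3). Over all genes it ranged from 3894 (without T6B_MUT replicate 1) to 8083 with a replicate left out. The difference of Ago2 effects between experiments had 473 genes called, from 269 to 1634 with a replicate left out, and 0 to 2 of 8 members, with 2 without Ago2KO_empty replicate 3.

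Same-numbered replicates deviated together in all 3 pairs in none of the 7 comparisons. They did so in 2 of 3 pairs in Trim71KO against W (r up to 0.60) and Trim71KO against Ago2KO (up to 0.64). The same count held for Ago2KO_empty against T6B_MUT (up to 0.36) and Trim71KO_empty against Ago2KO_empty (up to 0.205). With 3 replicates this cannot settle whether the numbers pair the samples, and the main fits did not treat them as paired. With a replicate block, 79 of 80 member values kept their call, and Dnmt1 in Ago2KO against W lost it (0.12, adjusted p = 0.0538). The fits excluding a whole group and the alternatives for list counts and named genes were chosen after seeing the data. With 3 libraries per group, Tet1 and Tet3 had standard errors of 0.33 to 0.35 in Experiment 2, which limits what could be detected there. The cause of these shifts was not tested.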
